A study of Mus musculus with 6 samples.

Results

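The genes described here encode costimulatory and coinhibitory molecules through which myeloid cells address T cells. They were taken by name, as a set around Cd86 drawn up with earlier results of these data known, and without a threshold on their values: the B7 family ligands Cd86, Cd80, Icosl, Cd274, Pdcd1lg2 and Vsir, the TNF superfamily pair Tnfsf9 and Cd40, and the inhibitory receptor Havcr2 with its ligand Lgals9. These 10 genes were read from 55421 gene entries in RNA sequencing of monocytes from the spleens of C57BL/6 mice. The comparison was between 3 IL-4Rα+/+ mice and 3 IL-4Rα-/- mice, with 1 library per mouse. The IL-4Rα-/- mice are a full knockout of the IL-4 receptor alpha chain, which the receptors for IL-4 and IL-13 share, so the deletion is not limited to monocytes. The IL-4Rα+/+ mice were littermates that carry the receptor. The labels name no treatment for either genotype, and the methods of the study put its animals at 8 to 16 weeks of age, without the age of each mouse. The monocytes were enriched by negative selection with antibodies and magnetic beads and were not sorted.

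T cells need a second signal beside the antigen receptor, and the B7 family on antigen-presenting cells gives it. CD80 and CD86 bind CD28, which activates T cells, and CTLA-4, which restrains them, while PD-L1 and PD-L2 bind the inhibitory receptor PD-1. The TNF superfamily works alongside: 4-1BB ligand on the myeloid cell stimulates T cells, and CD40 is a receptor that receives help from T cells and relays it through TRAF adaptors and NF-kB. IL-4 signals through STAT6 and is a known regulator of several of these molecules in myeloid cells, PD-L2 among them.

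Each library held between 26807281 and 29033297 reads on genes, so that 1 read was worth 0.0344 to 0.0373 counts per 1000000 (CPM) before scaling. The CPM values of genes and markers given here were scaled by the TMM method of edgeR. Il4ra, the targeted gene, was measured at 137, 128 and 177 CPM in the IL-4Rα+/+ libraries and at 27.9, 79.4 and 31.8 CPM in the IL-4Rα-/- libraries. The groups did not overlap, but the second IL-4Rα-/- library stood apart from the other two, nearer to the controls. Without it the log2 fold change of Il4ra went from -1.67 to -2.30, and results of the members without it are given with them. The 10 monocyte markers summed to 9378 to 9861 CPM in IL-4Rα+/+ and 8858 to 9204 CPM in IL-4Rα-/- libraries, and no marker of any list was at or under 3 counts in every library. Other cell types were also present. Markers of red pulp macrophages summed to 3552 to 4119 CPM against 4605 to 7249 CPM, erythroid markers to 67.6 to 131 against 183 to 455 CPM, and eosinophil, basophil and mast cell markers to 78.8 to 93.4 against 135 to 217 CPM, so these 3 sums were higher in every IL-4Rα-/- library. The neutrophil sums were 58.9 to 238 against 106 to 605 CPM, the B cell sums 42.4 to 120 (119.7) against 37.3 to 202, the T and NK cell sums 46.9 to 121 against 42.3 to 110 (109.7), and the dendritic cell sums 356 to 629 against 313 to 506 CPM, all of which overlapped. The share of reads that fell on no gene feature was 10.3 to 11.7% in IL-4Rα+/+ and 8.87 to 9.68% in IL-4Rα-/- libraries. The X-inactivation transcript Xist had 15739 counts in the first IL-4Rα+/+ library and 13512 in the third IL-4Rα-/- library, against 1 to 103 in the others. In bulk RNA, fewer cells of a type and less RNA per cell cannot be told apart.

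All 10 genes were expressed above the filter on low counts in these monocytes, between 62 and 27406 counts per library. Per kilobase of gene model, the highest level in IL-4Rα+/+ monocytes was that of Vsir, the T cell suppressing ligand VISTA, at 141 ± 27.3 CPM per kb (SD, n = 3). Lgals9 at 60.1 ± 10.8 and Havcr2 at 58.7 ± 24.3 CPM per kb came next and overlapped each other. Cd274 at 23.6 ± 8.59, Icosl at 21.3 ± 3.72 and Cd86 at 18.9 ± 1.85 CPM per kb also overlapped, and Cd40 stood below them at 12.1 ± 1.62. Cd80 at 3.95 ± 0.189, Pdcd1lg2 at 3.89 ± 1.25 and Tnfsf9 at 2.56 ± 0.471 CPM per kb were the lowest. Pdcd1lg2 overlapped with both of its neighbours, while every Cd80 library lay above every Tnfsf9 library. The level of Vsir was thus 55.1 times that of Tnfsf9 per kilobase. In IL-4Rα-/- monocytes the order at the top and the bottom was similar, with Vsir at 146 ± 39.2, Lgals9 at 71.8 ± 11.4 and Havcr2 at 45.1 ± 14.9 CPM per kb. Cd86 came next in IL-4Rα-/- monocytes at 27.5 ± 3.84 CPM per kb, before Cd274 at 19.7 ± 6.38 and Icosl at 17.9 ± 1.53. The Cd86 libraries overlapped those of Havcr2 and Cd274 but not those of Icosl. The next was Cd40 at 10.4 ± 1.38, and the lowest were Cd80 at 5.05 ± 0.842, Tnfsf9 at 3.26 ± 1.73 and Pdcd1lg2 at 2.91 ± 1.27 CPM per kb.

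**Figure D1:**
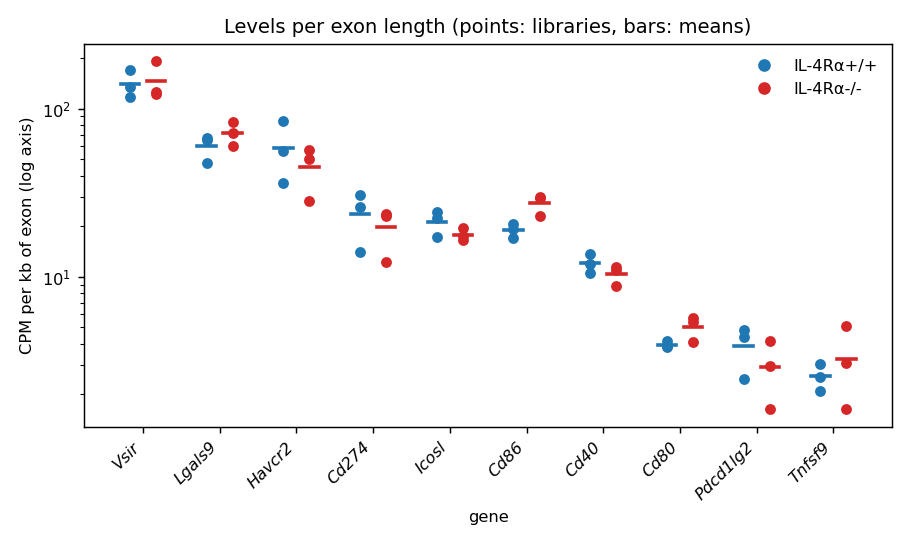
Level of each of the 10 genes per kilobase of gene model in CPM per kb (log axis), for IL-4Rα+/+ (blue) and IL-4Rα-/- (red) monocytes, with points for the 3 libraries of each genotype and bars for their mean. Vsir is highest in both genotypes (141 and 146 CPM per kb), and Cd80, Pdcd1lg2 and Tnfsf9 are lowest.

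Cd86 was the only one of the 10 genes whose libraries did not overlap between the genotypes. Cd86 (ENSMUSG00000022901.13) encodes the B7-2 ligand of CD28 and CTLA-4, which monocytes carry at rest, and occupies chr16:36603869-36666081 of GRCm38 on the minus strand. It was measured at 70.2, 75.6 and 62.2 CPM in the 3 IL-4Rα+/+ libraries and at 110.0, 108 and 84.5 CPM in the 3 IL-4Rα-/- libraries. The lowest IL-4Rα-/- library was above the highest IL-4Rα+/+ library, and the third IL-4Rα-/- library was the nearest to the controls. The means were 69.3 ± 6.78 and 101 ± 14.1 CPM (SD, n = 3), a fold of 1.45 with a 95% interval of 1.17 to 1.80, or a log2 fold change of 0.54 ± 0.13 (SE). The unadjusted p was 0.00450 in the quasi-likelihood test of edgeR, and after Benjamini-Hochberg adjustment over 13849 genes the p was 0.618, above the threshold of 0.15 that the study used. No gene in the data passed that threshold in edgeR, including Il4ra, and 1120 genes had an unadjusted p under 0.05 (8.09%). DESeq2 called 80 of the 14003 genes to which it gave an adjusted p (0.571%), and Cd86 was among them, with an adjusted p of 0.107. That call was lost when any library but the third IL-4Rα-/- one was left out, with adjusted p from 0.153 to 0.888, and when a trend with gene length was removed (0.304); without the third IL-4Rα-/- library the adjusted p was 0.00679. The third IL-4Rα-/- library, like the first IL-4Rα+/+ library, had high Xist counts. With the Xist level as covariate the log2 fold change of Cd86 was 0.51, with an unadjusted p of 0.00843 and an adjusted p of 0.728 in edgeR's test. Without the second IL-4Rα-/- library, which stood apart at Il4ra, the log2 fold change of Cd86 was 0.49 in edgeR. The groups failed to overlap at 2146 of the 13849 genes (15.5%), with the IL-4Rα-/- libraries higher at 1056 genes (7.63%) and lower at 1090 (7.87%).

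Cd80 (ENSMUSG00000075122.5), which encodes the B7-1 ligand of the same receptors, lies 1789480 bp beyond Cd86 on the same chromosome, at chr16:38455561-38496335 on the plus strand. It was measured at 15.4, 14.1 and 14.3 CPM in IL-4Rα+/+ monocytes and at 19.99, 21.0 and 15.2 CPM in IL-4Rα-/- monocytes. The first and second IL-4Rα-/- libraries were above all others and the third was below the first IL-4Rα+/+ library, so that the groups overlapped. The log2 fold change was 0.35 ± 0.14 (SE), with a 95% interval of 0.01 to 0.70, an unadjusted p of 0.0440 and an adjusted p of 0.618 in edgeR's test, and 0.589 in DESeq2. Cd86 and Cd80 were thus the 2 of 10 members with an unadjusted p under 0.05, both with higher means in IL-4Rα-/- monocytes. Over all genes the share was 8.09% in either direction and 3.72% in the higher direction. The set was drawn up around Cd86 with earlier results known. For Cd80 the p of edgeR's test was 0.0650 with a replicate block, 0.0680 with the Xist level as covariate and 0.0726 with the length trend removed. It was 0.0626 to 0.134 without any 1 library but the third IL-4Rα-/- one, and 0.00572 without that one. Within a library, the ratio of Cd86 to Cd80 per kilobase was 4.60, 5.42 and 4.38 in IL-4Rα+/+ and 5.56, 5.19 and 5.64 in IL-4Rα-/- monocytes, and overlapped.

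Markers of red pulp macrophages were higher in the same libraries. Their sum was 4119, 3679 and 3552 CPM in the IL-4Rα+/+ libraries and 7249, 4996 and 4605 CPM in the IL-4Rα-/- libraries, without overlap. All 10 markers of that list had a higher mean in IL-4Rα-/- libraries. Of these, 6 (60%) had an unadjusted p under 0.05 in edgeR's test and 5 (50%) did not overlap, beside 8.09% and 15.5% over all genes. The library with the highest sum, the first of the IL-4Rα-/- group, also had the highest Cd86 and the second highest Cd80. This was not particular to red pulp macrophages. The eosinophil, basophil and mast cell sum was also highest in that library, at 217 CPM against 135 and 140 CPM in the other IL-4Rα-/- libraries. In that list 7 of 10 genes did not overlap, and in the erythroid list 8 of the 9 tested. The part of any of these cells in the levels of Cd86 and Cd80 was not tested.

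**Figure D2:**
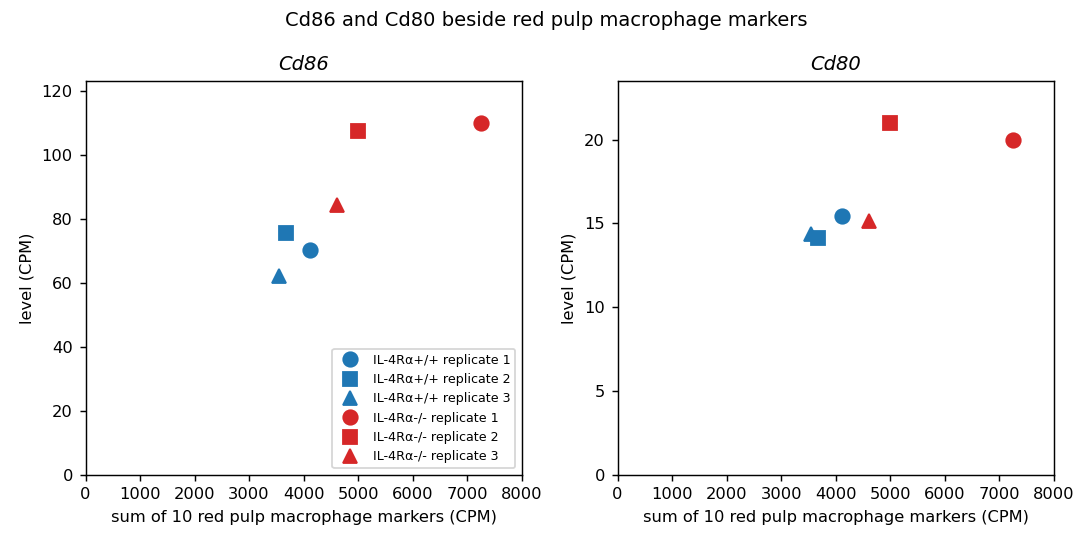
Cd86 and Cd80 in CPM against the summed level of 10 red pulp macrophage markers in CPM, with 1 point for each of the 6 libraries (blue IL-4Rα+/+, red IL-4Rα-/-, shape for replicate). The 3 IL-4Rα-/- libraries lie to the right, at 4605 to 7249 CPM, and above the others for Cd86 but not for Cd80.

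Icosl (ENSMUSG00000000732.9), at chr10:78069302-78083913 on the plus strand, encodes the ligand of ICOS, a costimulatory receptor of activated T cells. It was measured at 113, 104 and 79.3 CPM in IL-4Rα+/+ and at 81.3, 76.1 and 90.1 CPM in IL-4Rα-/- monocytes. The third IL-4Rα+/+ library was as low as the IL-4Rα-/- libraries. Its log2 fold change was -0.25 ± 0.14 (SE; 95% interval -0.59 to 0.09), with an adjusted p of 0.642 in edgeR's test. Without the third IL-4Rα+/+ library DESeq2 called Icosl, in a setting that called 438 genes in place of 80 and in which 36.9% of all genes had groups that did not overlap.

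PD-L1 and PD-L2, the ligands of PD-1, are encoded by neighbouring genes. Cd274 (ENSMUSG00000016496.7), the gene of PD-L1, spans chr19:29367455-29388095, and Pdcd1lg2 (ENSMUSG00000016498.10), the gene of PD-L2, spans chr19:29410919-29471161, 22824 bp further on the same plus strand. Promoter sequence, the 250 bases before the annotated start, was read from RefSeq (GRCm38.p6) for both, since PD-L2 is known as a gene induced by IL-4. The STAT6 motif, TTC and GAA with any 4 bases between them, reads the same on both strands and is set in capitals. It was found in the window of Pdcd1lg2 (chr19:29410837-29410846) and in 6.95% of 32851 promoter windows of 300 bases, and in none of the windows of the other 6 members with a promoter in that table. For Cd86, Cd40 and Tnfsf9 no promoter sequence was available, so these genes were not searched for any motif.
Pdcd1lg2, chr19:29410669-29410918, plus strand: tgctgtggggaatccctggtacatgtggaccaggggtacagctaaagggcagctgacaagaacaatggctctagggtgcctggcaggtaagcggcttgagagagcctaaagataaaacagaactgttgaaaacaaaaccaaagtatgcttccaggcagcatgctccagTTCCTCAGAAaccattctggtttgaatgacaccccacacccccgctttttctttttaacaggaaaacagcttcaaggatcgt
Cd274, chr19:29367188-29367437, plus strand: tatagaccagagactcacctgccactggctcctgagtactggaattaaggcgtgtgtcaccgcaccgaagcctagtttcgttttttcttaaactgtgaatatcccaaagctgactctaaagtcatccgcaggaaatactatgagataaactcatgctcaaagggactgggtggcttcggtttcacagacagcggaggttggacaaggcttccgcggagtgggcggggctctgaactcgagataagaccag
Cd274 was measured at 112, 93.9 and 51.2 CPM in IL-4Rα+/+ and at 85.5, 44.6 and 83.7 CPM in IL-4Rα-/- monocytes. Pdcd1lg2 was measured at 9.45, 8.57 and 4.83 CPM in IL-4Rα+/+ and at 8.18, 3.19 and 5.78 CPM in IL-4Rα-/- monocytes. Both genes ranked the 6 libraries in the same order, with the first and second IL-4Rα+/+ libraries at the top and the second IL-4Rα-/- library at the bottom, and both overlapped between the genotypes. The log2 fold change of Cd274 was -0.26 ± 0.35 (SE; 95% interval -1.10 to 0.57), with an adjusted p of 0.812 in edgeR's test. That of Pdcd1lg2 was -0.42 ± 0.40 (SE; 95% interval -1.36 to 0.53), with an adjusted p of 0.757. Per kilobase, Cd274 was 6.40, 5.93 and 5.74 times Pdcd1lg2 in the IL-4Rα+/+ libraries and 5.66, 7.58 and 7.84 times in the IL-4Rα-/- libraries. An antisense gene overlaps each of them, AC119228.1 at Cd274 with 4 to 14 counts per library and A930007I19Rik at Pdcd1lg2 with 18 to 66 counts.

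Vsir (ENSMUSG00000020101.14), at chr10:60346851-60372684 on the plus strand, encodes VISTA, a B7-like ligand that restrains T cells and is abundant on myeloid cells. It was measured at 587, 677 and 856 CPM in IL-4Rα+/+ and at 629, 959.9 and 610 CPM in IL-4Rα-/- monocytes. The second IL-4Rα-/- library was the highest of all and the other two lay among the controls. For Vsir the log2 fold change was 0.05 ± 0.22 (SE; 95% interval -0.47 to 0.57), with an adjusted p of 0.945 in edgeR's test. This value turned to -0.06 without the first IL-4Rα+/+ library and to -0.19 without the second IL-4Rα-/- library. Vsir lies within Cdh23 on the opposite strand, which had 11 to 32 counts per library.

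The TNF-type members had means of opposite direction. Tnfsf9 (ENSMUSG00000035678.8), at chr17:57105325-57107757, encodes 4-1BB ligand, which stimulates T cells through the receptor 4-1BB, and was measured at 3.27, 2.71 and 3.93 CPM in IL-4Rα+/+ monocytes and 3.96, 6.55 and 2.10 CPM in IL-4Rα-/- monocytes. The IL-4Rα-/- libraries held both the highest and the lowest value. The log2 fold change was 0.35 ± 0.41 (SE; 95% interval -0.64 to 1.33), with an adjusted p of 0.794 in edgeR's test, and became -0.12 without the second IL-4Rα-/- library. Gm11110, on the other strand of the same place, had 14 to 70 counts beside the 62 to 187 counts of Tnfsf9. Cd40 (ENSMUSG00000017652.16), at chr2:165055627-165072948, encodes the receptor for CD40 ligand on activated T cells, and was measured at 40.6, 46.9 and 35.9 CPM in IL-4Rα+/+ and at 37.2, 30.2 and 39.1 CPM in IL-4Rα-/- monocytes. The highest values were in the first and second IL-4Rα+/+ libraries, and the groups overlapped. The log2 fold change of Cd40 was -0.21 ± 0.14 (SE; 95% interval -0.54 to 0.12), with an adjusted p of 0.666. B cells and dendritic cells carry CD40 too. The dendritic cell markers summed to 629, 556 and 356 CPM in IL-4Rα+/+ and to 439, 313 and 506 CPM in IL-4Rα-/- libraries. The B cell markers summed to 62.2, 119.7 and 42.4 CPM in IL-4Rα+/+ and to 58.1, 37.3 and 202 CPM in IL-4Rα-/- libraries. The second IL-4Rα-/- library was lowest for Cd40 and for both sums, and also for the T and NK cell markers (42.3 CPM). The part of B cells and dendritic cells in the level of Cd40 was not tested.

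Havcr2 (ENSMUSG00000020399.14), at chr11:46454935-46481255 on the plus strand, encodes TIM-3, an inhibitory receptor of T cells and of myeloid cells. It was measured at 229, 152 and 97.9 CPM in IL-4Rα+/+ and at 154, 77.1 and 137 CPM in IL-4Rα-/- monocytes. The spread within each genotype was wider than the gap between the means, and the groups overlapped. Havcr2 had a log2 fold change of -0.38 ± 0.36 (SE; 95% interval -1.25 to 0.49), with an adjusted p of 0.757 in edgeR's test. Lgals9 (ENSMUSG00000001123.15), at chr11:78962974-78984946 on the minus strand, encodes galectin-9, a binding partner of TIM-3. It was measured at 102, 144 and 139 CPM in IL-4Rα+/+ and at 129, 177 and 154 CPM in IL-4Rα-/- monocytes, where the first IL-4Rα-/- library was below 2 of the controls. Its log2 fold change was 0.26 ± 0.17 (SE; 95% interval -0.15 to 0.66), with an adjusted p of 0.675. Within a library, Lgals9 per kilobase was 0.567, 1.21 and 1.81 times Havcr2 in IL-4Rα+/+ monocytes and 1.06, 2.93 and 1.43 times in IL-4Rα-/- monocytes, so that either gene could be the higher one. The promoter of Lgals9 was the only one of the 7 with the core of an interferon-stimulated response element, GAAA and GAAA with any 2 bases between on either strand, in capitals below, a motif in 3.44% of the 32851 windows. A second match lay 15 bases after the start.
Lgals9, chr11:78984925-78985174, minus strand: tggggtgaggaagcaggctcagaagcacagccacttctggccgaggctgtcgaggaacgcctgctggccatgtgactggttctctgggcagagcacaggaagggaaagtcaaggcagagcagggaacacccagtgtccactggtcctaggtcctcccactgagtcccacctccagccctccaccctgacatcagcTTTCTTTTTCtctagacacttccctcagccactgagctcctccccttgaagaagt
A single exact form of the NF-kB consensus, on either strand, was found in 0.155% of windows. The interferon-gamma activated site, TTC and GAA with any 3 bases between, was found in 8.30%. No match to either was found in the 7 windows. For so rare an NF-kB sequence, this says little about other forms of the NF-kB site.

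**Figure D3:**
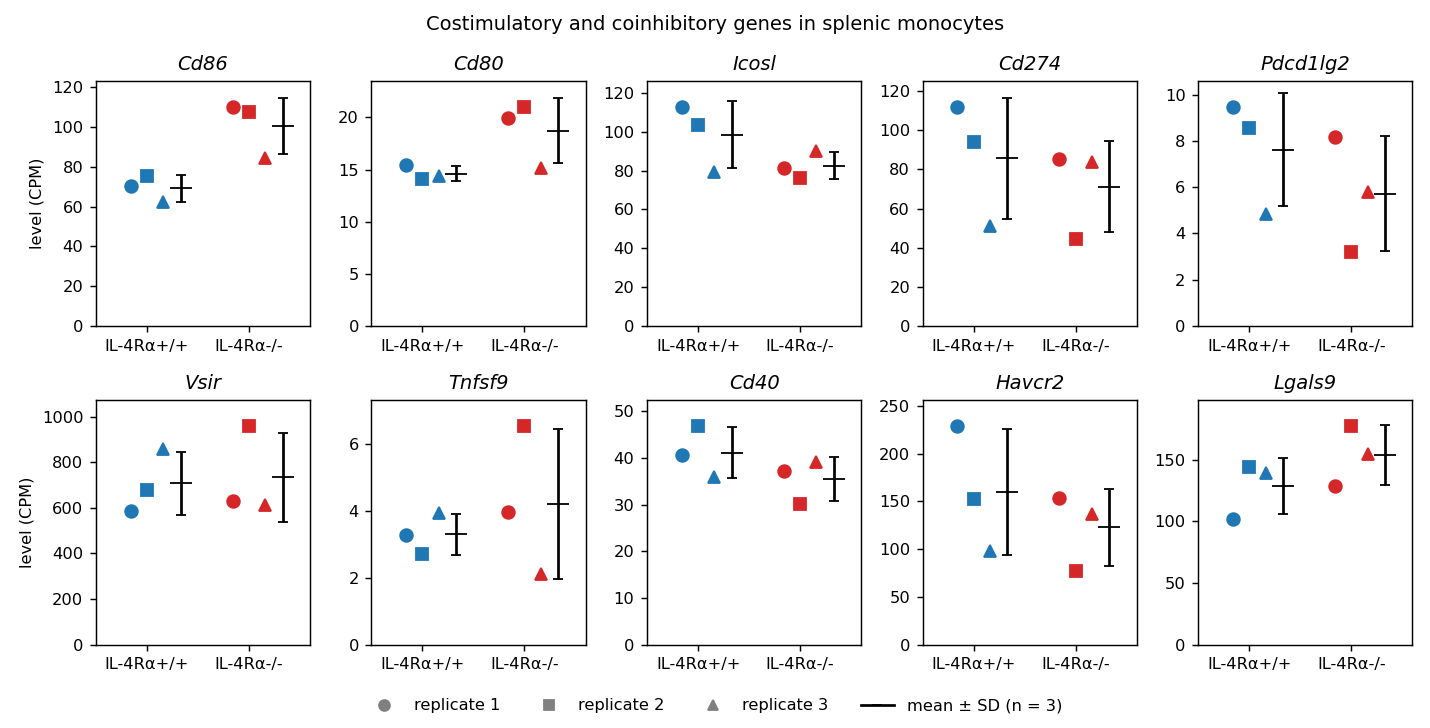
Level in CPM of the 10 genes in each library, with IL-4Rα+/+ in blue, IL-4Rα-/- in red, a shape for each replicate and black bars for mean ± SD (n = 3); each panel starts at 0 and has its own scale. For Cd86 the 3 IL-4Rα-/- libraries, 84.5 to 110.0 CPM, lie above the 3 controls, 62.2 to 75.6 CPM, and in the other 9 panels the groups overlap.

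Across the 10 genes, 5 had a higher and 5 a lower mean log2 value in IL-4Rα-/- monocytes, with a median log2 fold change of -0.08, against 0.01 over all genes tested. DESeq2 called 1 of the 10, where over all genes it called 80 of 14003 (0.571%), and edgeR called none. The groups failed to overlap at 1 member (10%), beside 15.5% over all genes tested, and at 5 members when the third IL-4Rα+/+ library was left out, where Icosl, Cd274, Pdcd1lg2 and Cd40 joined Cd86 with lower IL-4Rα-/- values, beside 36.9% of all genes in that setting. Without the second IL-4Rα-/- library, the log2 fold changes in edgeR were 0.49 for Cd86, 0.27 for Cd80, -0.20 for Icosl, -0.02 for Cd274, -0.13 for Pdcd1lg2 and -0.19 for Vsir. In the same fit they were -0.12 for Tnfsf9, -0.11 for Cd40, -0.13 for Havcr2 and 0.14 for Lgals9. The intervals differed in width. For Icosl, Cd40, Cd86 and Cd80 the standard error was 0.13 to 0.14, and for Cd274, Pdcd1lg2, Havcr2 and Tnfsf9 it was 0.35 to 0.41. A difference as large as that of Cd86 (0.538), in the lower direction, lay within the interval of those 4 genes. It also lay within the intervals of Icosl (lower bound -0.594) and Cd40 (lower bound -0.541).

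**Figure D4:**
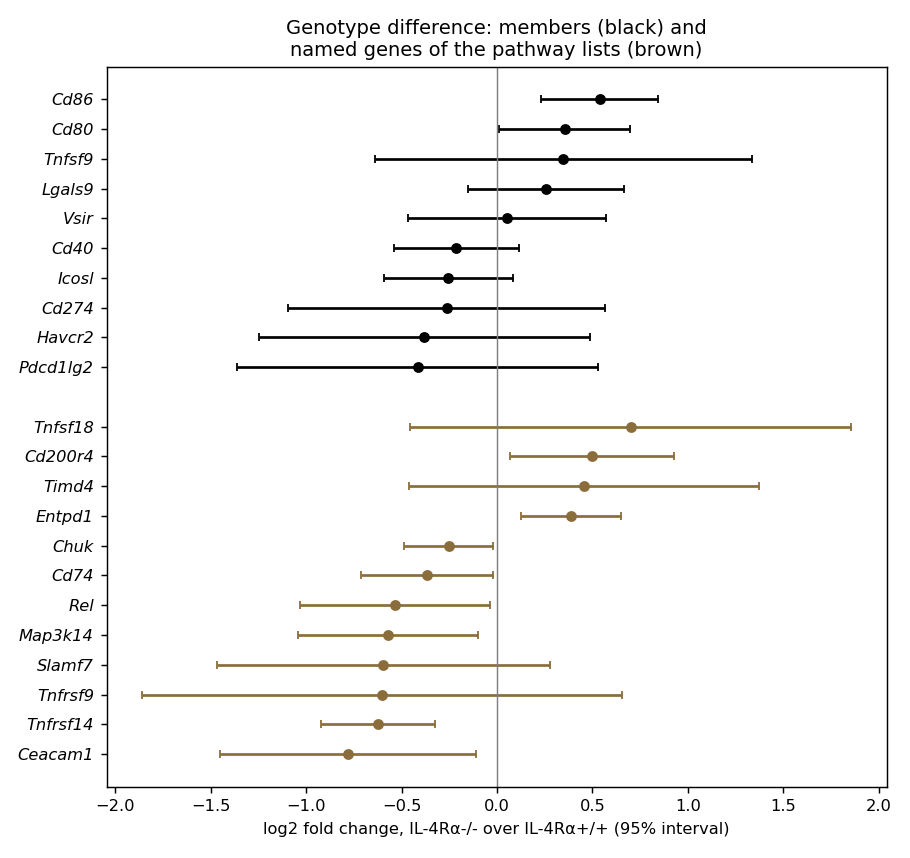
Log2 fold change, IL-4Rα-/- against IL-4Rα+/+, with its 95% interval for the 10 genes (black) and the genes named from the related lists (brown), from the fit on all genes in edgeR. Among the 10, the intervals of Cd86 (0.23 to 0.84) and Cd80 (0.01 to 0.70) lie above 0 and the other 8 include 0.

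Several of these genes varied more between mice of the same genotype than between the genotypes. The ratio of the highest to the lowest library was 1.48 for Icosl and 1.49 for Cd80, and it was 2.50 for Cd274, 2.97 for Pdcd1lg2, 2.98 for Havcr2 and 3.12 for Tnfsf9. The second IL-4Rα-/- library was the lowest of the 6 for 5 genes (Icosl, Cd274, Pdcd1lg2, Cd40 and Havcr2) and the highest for 4 (Cd80, Vsir, Tnfsf9 and Lgals9). Some genes of the nonclassical, Ly6C-low monocyte had the same library order as members, and others did not. Ace, a marker of that subset, was at 2774, 2124 and 1088 CPM in IL-4Rα+/+ and at 1745, 710.0 and 1604 CPM in IL-4Rα-/- libraries, which is the library order of Cd274 and Pdcd1lg2. Nr4a1, the regulator that the subset depends on, was at 1439, 1210 (1209.5) and 828 CPM against 1024, 539 and 1116 CPM, in the order of Icosl. Treml4 and Cx3cr1, which that subset also carries, had orders of their own, with the third IL-4Rα+/+ library lowest for Treml4 and the second IL-4Rα+/+ library highest for Cx3cr1. Genes of the classical, Ly6C-high monocyte ran the other way. Ccr2, the receptor that brings these cells out of the bone marrow, was at 380.4, 1045 and 1668 CPM in IL-4Rα+/+ and at 826, 2008 and 979 CPM in IL-4Rα-/- libraries, and the 3 highest were the same libraries as for Vsir. Ly6c2 was at 242, 380.4 and 427 CPM against 339, 592 and 503 CPM, with the second and the third IL-4Rα-/- libraries highest, like Lgals9. Beside these monocyte genes, the dendritic cell markers also had the order of Icosl, with sums of 629, 556 and 356 CPM against 439, 313 and 506 CPM. These markers were picked for this description after their values were seen, and the points share a library and its depth. The part of the 2 subsets and of dendritic cells in the levels was not tested. Cd86 followed none of these orders.

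**Figure D5:**
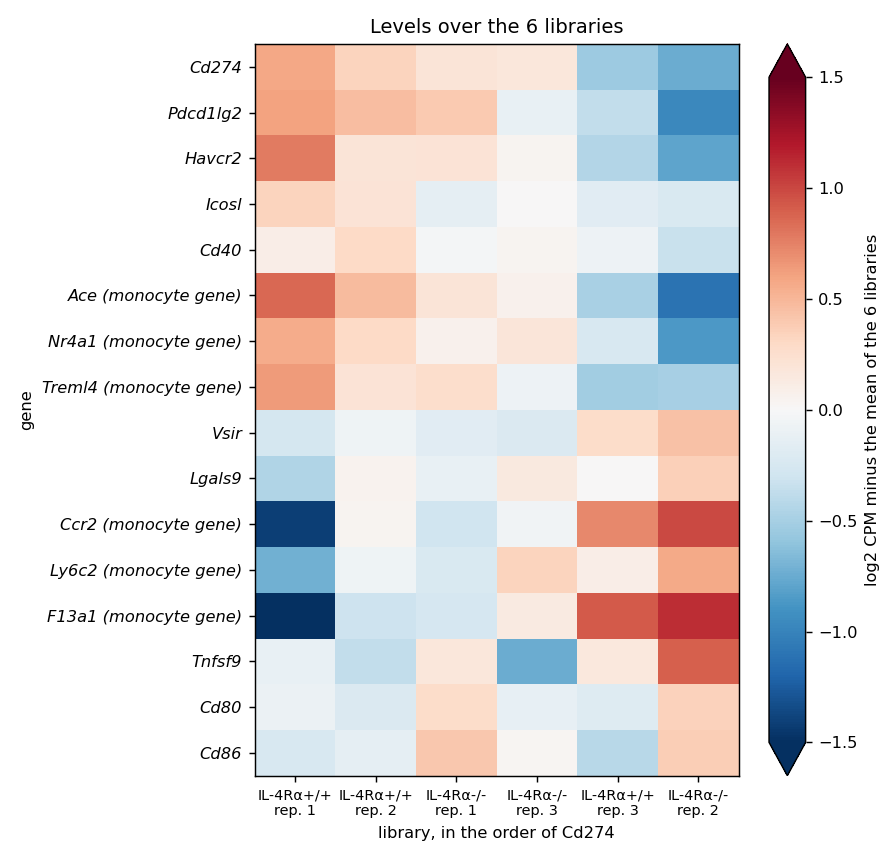
Log2 level of the 10 genes and of 6 monocyte subset markers in each of the 6 libraries, relative to the gene's mean over the libraries, which stand in the order of Cd274 from left to right (colour scale from -1.5 in blue to 1.5 in red). The second IL-4Rα-/- library is low for Cd274, Pdcd1lg2, Havcr2, Ace and Nr4a1 and high for Vsir, Lgals9, Ccr2 and Ly6c2, and only Cd86 separates the genotypes among the 10.

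Around the 10 genes, 106 genes of 9 related lists had an identifier in the files and 90 passed the filter on low counts. None was called by edgeR. DESeq2 called 1 of the 90, where over all genes it called 80 of 14003 (0.571%). Of the 90, 8 (8.89%) had an unadjusted p under 0.05 in edgeR's test and 7 (7.78%) had groups that did not overlap, beside 8.09% and 15.5% over all genes. Of the 90, 29 had a higher and 61 a lower mean in IL-4Rα-/- monocytes, with a median log2 fold change of -0.14.

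The receptor called by DESeq2 was Tnfrsf14, which encodes HVEM, a TNF receptor family member that binds the T cell inhibitory receptor BTLA. Tnfrsf14 was measured at 31.9, 39.6 and 30.5 CPM in IL-4Rα+/+ and at 20.1, 23.5 and 22.5 CPM in IL-4Rα-/- monocytes, without overlap. Its log2 fold change was -0.62 ± 0.12 (SE; 95% interval -0.92 to -0.33), with an adjusted p of 0.618 in edgeR and 0.0424 in DESeq2. The DESeq2 call was lost without the second IL-4Rα+/+ library (0.265) and without the first IL-4Rα-/- library (0.603), and with a replicate block (0.154). Of the 11 TNF receptor genes tested, 5 had a higher and 6 a lower mean, and Tnfrsf14 alone had an unadjusted p under 0.05. Of the 11 other TNF superfamily ligands, 4 were higher and 7 lower, none under 0.05, and the smallest p was that of Tnfsf18 at 0.192.

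The relay below CD40 and the TNF receptors, made of TRAF adaptors, kinases and NF-kB subunits, was mostly lower in mean level: 18 of the 19 genes had a lower mean in IL-4Rα-/- monocytes, with a median log2 fold change of -0.19, where the whole table had 51.5% of genes above 0. Of the 19, 3 (15.8%) had an unadjusted p under 0.05 and 4 (21.1%) did not overlap, beside 8.09% and 15.5% over all genes. None was called. Map3k14, the NF-kB-inducing kinase, was at 241, 177 and 153 CPM in IL-4Rα+/+ and at 143, 104 and 136 CPM in IL-4Rα-/- monocytes (log2 fold change -0.57, adjusted p 0.618 in edgeR). Rel, an NF-kB subunit of lymphoid and myeloid cells, was at 246, 204 and 150 against 156, 111 and 149 CPM, with log2 fold change -0.53. Chuk, the kinase IKK-alpha, had log2 fold change -0.25. Without the first IL-4Rα+/+ library the unadjusted p in edgeR was 0.0645 for Map3k14, 0.125 for Rel and 0.117 for Chuk.

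Antigen presentation genes, which supply the first signal, were also mostly lower in mean, with 11 of 12 below 0 and a median of -0.23. Of the 12, 1 (8.33%) had an unadjusted p under 0.05 in edgeR's test and 0 did not overlap, beside 8.09% and 15.5% over all genes. Cd74, the invariant chain of MHC class II, was at 3288, 3202 and 2399 CPM against 2511, 2051 and 2326 CPM (unadjusted p 0.0402). The third IL-4Rα+/+ library lay within the IL-4Rα-/- range.

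Other checkpoint genes went both ways, with 9 of 17 higher and 8 lower. Entpd1, the ectonucleotidase CD39, was at 102, 106 and 87.8 CPM in IL-4Rα+/+ and at 143, 126 and 119 CPM in IL-4Rα-/- monocytes, without overlap (log2 fold change 0.39, unadjusted p 0.00989, adjusted p 0.618 in edgeR). Ceacam1, a ligand of TIM-3, was at 527, 402 and 255 CPM against 271, 176 and 241 CPM, with log2 fold change -0.78 and an unadjusted p of 0.0284. Among the B7 relatives, 4 of 6 were higher, led by Cd200r4 (log2 fold change 0.50, unadjusted p 0.0295), and Vtcn1, Btn1a1 and Btn2a2 had 0 counts in every library. In the SLAM family list 3 of 9 were higher, in the list of T cell receptors for these ligands 1 of 4, and in the TIM family the 1 gene tested, Timd4, was higher. Their leading genes were Slamf7 at log2 fold change -0.60, Tnfrsf9, the 4-1BB receptor, at -0.60, and Timd4 at 0.46, with unadjusted p of 0.148, 0.293 and 0.274.

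Of the other 13848 genes tested, the 5 whose centred log2 values over the 6 libraries came closest to those of Cd86 were Eva1b, Lrp12, AC132253.6, Ric3 and Chchd5, with root mean square differences of 0.0523, 0.0738, 0.0921, 0.0951 and 0.0958.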

How the data were processed

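RNA was sequenced from splenic monocytes of 6 mice, 3 per genotype, with single-end reads of 75 bp from a poly(A), strand-marking library. The authors aligned the reads to GRCm38 with STAR 2.6.1a and deposited gene counts from STAR on Gencode, one table per mouse. Which strand setting the counts use is not given in the sources used here, and neither is the role of RSEM, which the submitters' notes also name. The summary lines for reads not on genes (21.1 to 22.8% of a library) were left out, and 0 columns were unused. Symbols, lengths and coordinates come from the GRCm38 Gencode annotation supplied, an earlier release than the authors', in which 55240 of the 55421 identifiers matched.

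Counts of all genes were fitted with edgeR 4.0.16 (limma 3.58.1, R 4.3.3): TMM normalization, filterByExpr with a minimum count of 10, the quasi-likelihood test and Benjamini-Hochberg adjustment, called under 0.15 as in the study. DESeq2 1.42.0 was the alternative. With 3 mice per genotype, p-values measure the spread between mice. CPM values are TMM-scaled and, per kilobase, divided by the summed exon length. The 10 members, the related lists and the marker lists were chosen with earlier results of these data known. Named genes were the members, Il4ra, from each list up to 4 genes with the smallest unadjusted p under 0.05 (otherwise the 1 smallest), and the 5 profiles nearest to Cd86. The test was also run on counts simulated with the spread fitted to these libraries and with planted changes larger than those of the 10 members. That run does not show how well changes of the members' size would be found. Alternatives were another normalization, other filters, DESeq2, removal of a length trend, the Xist level as covariate, a replicate block and leaving out each library. DESeq2 under leave-one-out, block and length trend was added after the data were seen.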

Additional observations from a re-analysis of the deposited data

How the results depend on the processing

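The edgeR test called 0 of the genes tested, 0 members and 0 list genes under RLE normalization, no filter, a minimum count of 30, a threshold of 0.05, the Xist covariate, removal of the length trend and each left-out library, while DESeq2 called 80 genes, 1 member and 1 list gene. In DESeq2, leaving out a library gave 19 to 438 called genes, 0 to 1 members and 0 to 10 list genes; the 10 came without the third IL-4Rα+/+ library, where the member called was Icosl and not Cd86. With the length trend removed DESeq2 called 0 members. The members whose groups did not overlap numbered 1 to 5 when libraries were left out, beside 21.4 to 36.9% of all genes. The log2 fold change of Cd86 stayed between 0.47 and 0.65 in edgeR without any 1 library. Over the left-out libraries that of Vsir ran from -0.19 to 0.22, of Tnfsf9 from -0.12 to 0.67, of Havcr2 from -0.63 to -0.03, of Cd274 from -0.53 to -0.02 and of Pdcd1lg2 from -0.77 to -0.13. Vsir reversed to -0.06 without the first IL-4Rα+/+ library and to -0.19 without the second IL-4Rα-/- library, and Tnfsf9 to -0.12 without the latter. The cause was not tested. For replicate numbers 1, 2 and 3, the IL-4Rα+/+ and IL-4Rα-/- library deviated with correlations of 0.185, -0.271 and -0.296 over 13849 genes. Whether the numbers pair the mice cannot be decided from these values, since each genotype had only 3 libraries. With a replicate block, edgeR called 0 genes, with 765 under an unadjusted p of 0.05 in place of 1120, and DESeq2 called 44 genes, 1 member (Cd86) and 0 list genes, with Tnfrsf14 at an adjusted p of 0.154. With 3 mice per genotype, the wide intervals of Cd274, Pdcd1lg2, Havcr2 and Tnfsf9 limit what could be detected.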
